A study of Mus musculus with 3 samples.

Results

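The genes described here are 39 interferon-stimulated and antigen presentation genes of the mouse, taken by gene name. The list was chosen with earlier results of these data known. They were read out of 37074 gene names on a 1-colour Agilent expression array, each by its brightest probe without an outlier flag. RNA came from mpkDCT, a line of mouse kidney epithelium that models the distal convoluted tubule. In every sample Cyp27b1, the gene for the enzyme that turns 25-hydroxyvitamin D3 (calcidiol) into 1,25-dihydroxyvitamin D3 (calcitriol), had been knocked out by CRISPR-Cas9. There were 3 groups, namely vehicle, calcitriol at 1e-07 M and calcidiol at 1e-07 M, each exposed for 24 h. The treatment tag of the third sample names calcidiol, while its description names a compound with a further hydroxyl group, and the tag was followed here. All 3 titles also carry the letters siCT, which no label explains, so a treatment shared by all samples cannot be told from them. All 3 shared a medium free of phenol red, in which the 2% serum had been stripped with charcoal, given from 24 h before the hormones. Each group was 1 array, so no value below has a replicate check, no p-value is given, and a difference is one between arrays. The sources used here do not say whether the knockout line is a single clone.

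Interferons are secreted proteins that bind receptors coupled to JAK kinases. The kinases activate STAT proteins. A complex that holds STAT2 and IRF9 binds interferon-stimulated response elements in the promoters of many target genes, while other STAT dimers bind gamma-activated sites. The targets sense foreign nucleic acid, block viral replication, dampen the signal itself, and make and load the peptides shown on MHC class I. Epithelial cells keep many of these genes at a basal level without added interferon. Calcitriol acts through the vitamin D receptor, a nuclear receptor that calcidiol binds with lower affinity. The compounds differ by the hydroxyl group that the Cyp27b1 enzyme adds.

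The promoters below were searched for the letters of both kinds of element. Sequences are those of RefSeq on GRCm38.p6, written 5′ to 3′ on the strand of the gene, and each window ran from 250 bases before to 50 bases after an annotated start. Windows were found for 31 of the 39 members. The interferon-stimulated response element was searched as GAAA, 2 bases of any kind and GAAA again, on both strands, overlaps allowed, and the first 6 stretches are from members that hold it. Capitals mark the matches.
Isg15 (chr4:156200832-156200931, minus strand): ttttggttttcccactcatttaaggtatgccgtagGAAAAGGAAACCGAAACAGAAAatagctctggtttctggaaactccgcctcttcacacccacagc
Ifit1 (chr19:34640750-34640849, plus strand): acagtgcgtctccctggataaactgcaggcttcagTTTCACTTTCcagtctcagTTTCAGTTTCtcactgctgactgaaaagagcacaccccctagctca
Oas3 (chr5:120777670-120777769, minus strand): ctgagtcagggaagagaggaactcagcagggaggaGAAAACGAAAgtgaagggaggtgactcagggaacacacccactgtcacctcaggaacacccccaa
Rsad2 (chr12:26456508-26456607, minus strand): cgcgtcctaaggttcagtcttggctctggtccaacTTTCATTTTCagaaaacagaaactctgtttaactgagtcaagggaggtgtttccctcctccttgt
Gbp3 (chr3:142559944-142560043, plus strand): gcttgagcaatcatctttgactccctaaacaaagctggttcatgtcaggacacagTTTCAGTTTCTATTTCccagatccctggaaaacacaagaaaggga
B2m (chr2:122147513-122147612, plus strand): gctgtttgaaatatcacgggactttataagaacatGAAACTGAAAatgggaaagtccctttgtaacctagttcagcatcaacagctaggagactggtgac
Matches overlapped in the Isg15 and Gbp3 stretches. The letters were found in 15 of the 31 members (48.4%), against 3.99% of the 27025 genes in the table.

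Gamma-activated sites were searched as TTCNNNGAA, which is the same on both strands, and were found in 9 of the 31 members (29.0%), against 9.55% of all genes in the table. Irf1, itself an interferon-induced transcription factor, and Psmb8, an immunoproteasome subunit, had a match, again in capitals.
Irf1 (chr11:53769889-53769988, plus strand): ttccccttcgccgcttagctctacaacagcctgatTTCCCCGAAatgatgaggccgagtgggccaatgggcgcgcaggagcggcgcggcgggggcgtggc
Psmb8 (chr17:34198063-34198162, plus strand): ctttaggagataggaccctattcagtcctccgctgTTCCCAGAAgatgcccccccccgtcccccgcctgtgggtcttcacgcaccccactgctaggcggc
Psmb9 and Tap1 start 225 bases apart in opposite directions, so that both share the stretch between their starts. It is shown because the genes gave different values by their brightest probes without an outlier flag, and it held neither motif. A brighter Tap1 probe with a flag is described below.
Psmb9 to Tap1 (chr17:34187331-34187555, plus strand): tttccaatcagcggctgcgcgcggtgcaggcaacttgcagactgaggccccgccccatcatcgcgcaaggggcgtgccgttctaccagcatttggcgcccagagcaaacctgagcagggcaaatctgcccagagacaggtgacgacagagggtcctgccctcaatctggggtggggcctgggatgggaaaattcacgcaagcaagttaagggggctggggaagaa
A match is a description of letters and was not read as a bound site. Promoters of Oas2, Mx2, Usp18, Tap2, Parp14, Dhx58, Mx1 and Parp9 were not used here.

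Between 49.7% and 51.0% of spots were well above background on the 3 arrays. Cyp24a1, the 24-hydroxylase that is the standard target of the vitamin D receptor, had signals of 2.68 with vehicle, 5443 with calcitriol and 288 with calcidiol, at least 403-fold and at least 20.1-fold above vehicle. On no array was the Cyp27b1 probe well above background (2.91, 7.05 and 3.82), and where it lies relative to the edit is unknown here, so it checks nothing. Of 13 epithelial and kidney tubule markers, 5 were detected on all arrays, among them Cdh16 and Pax8, whereas Cdh1, Epcam, Krt8, Krt18, Krt19, Cldn4 and Emx1 were detected on none. Of the markers of the labelled segment, the sodium-chloride cotransporter gene Slc12a3 and Trpm6, Calb1, Trpv5 and Klhl3 were detected on no array, and Wnk1, Wnk4, Kcnj10 and Kcnj16 were detected. The cells are therefore called by their label only.

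Members stayed within 2-fold of vehicle with both hormones wherever both arrays detected them. Oas3, not well above background with calcitriol, was at least 2.75-fold lower there by a bound that is described below. Among 1134 genes detected on only 1 array of that pair, 188 had a bound of at least 2-fold, in either direction. Of the 39, 35 were well above background on all 3 arrays, Oas2 and Oas3 on some, and Mx1 and Oasl1 on none. Signals were log2-transformed and the 75th percentile of each array was subtracted. A difference was taken where both arrays of a pair detected the probe above background, and values after ± are the technical error assigned by the scanner software, which leaves out variation between cultures. No measured member was 2-fold from vehicle with calcitriol (0 of 35), where 1.57% of 16671 genes were at least 2-fold lower and 1.01% at least 2-fold higher. None was 2-fold from vehicle with calcidiol either (0 of 36), where the shares over 16664 genes were 0.144% lower and 0.858% higher. Over all genes these shares were 262 genes lower and 168 higher with calcitriol, and 24 lower and 143 higher with calcidiol. With each array centred on its median they were 181 lower and 229 higher, and 40 lower and 110 higher.

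**Figure D1:**
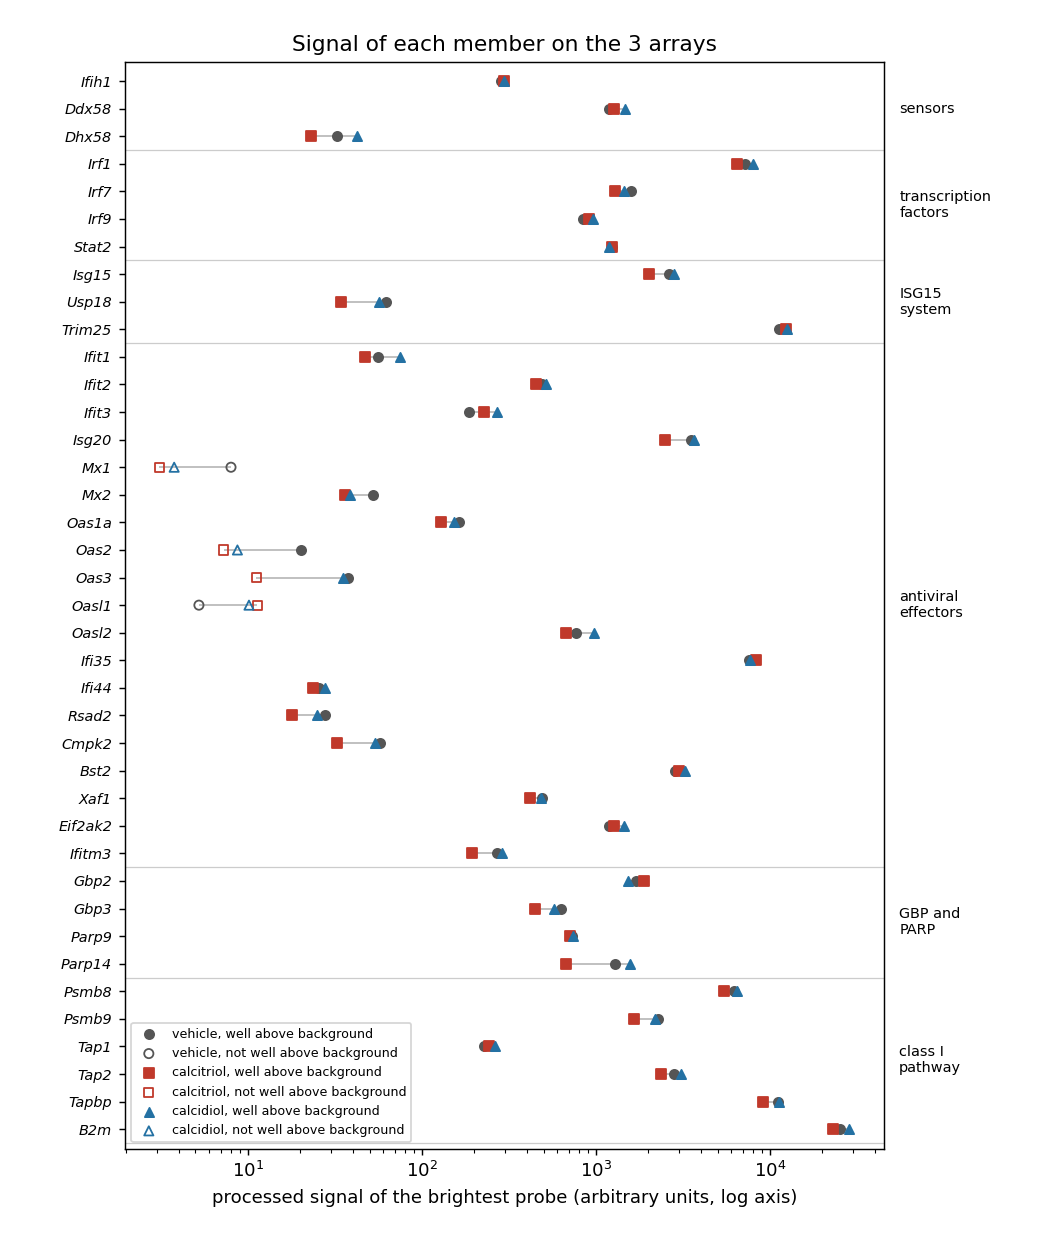
Processed signal (arbitrary units, log axis) of the brightest probe of each member on the vehicle, calcitriol and calcidiol arrays, grouped by role, with open marks where the spot was not well above background. The 3 marks lie close together for most members, Oas3 was not well above background with calcitriol (11.2), and levels are not comparable between probes.

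With calcitriol the members' median difference from vehicle was -0.22, against 0.01 for all genes, and 25 of 35 members (71.4%) were below 0, against 48.0% of all genes. Measured values ran from -0.95 for Parp14 to 0.27 for Ifit3, and 15 of the 35 lay within their technical error of 0, as did 9530 of 16671 genes. Parp14, Usp18, Cmpk2 and Rsad2 were at least 1.5-fold lower, that is 4 of 35 against 5.87% of all genes, and no member was 1.5-fold higher, against 3.58%. Usp18, Cmpk2 and Rsad2 had mean signals under 100, where 3 of 7 members and 12.2% of genes were that much lower. The Parp14 value came from a spot near the array edge, and its other probe went the other way. With calcidiol the median was -0.05, against -0.01 for all genes, and 21 of 36 members were below 0, against 51.3%. Values ran from -0.53 for Mx2 to 0.42 for Ifit3, and 26 of the 36 lay within their technical error, as did 11859 of 16664 genes. No member was 1.5-fold away, against 1.30% of genes lower and 2.92% higher. With each array centred on its median, 23 of 35 members were below 0 with calcitriol, against 32.2% of genes, and 29 of 36 with calcidiol, against 69.2%. Both comparisons use the same vehicle array.

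**Figure D2:**
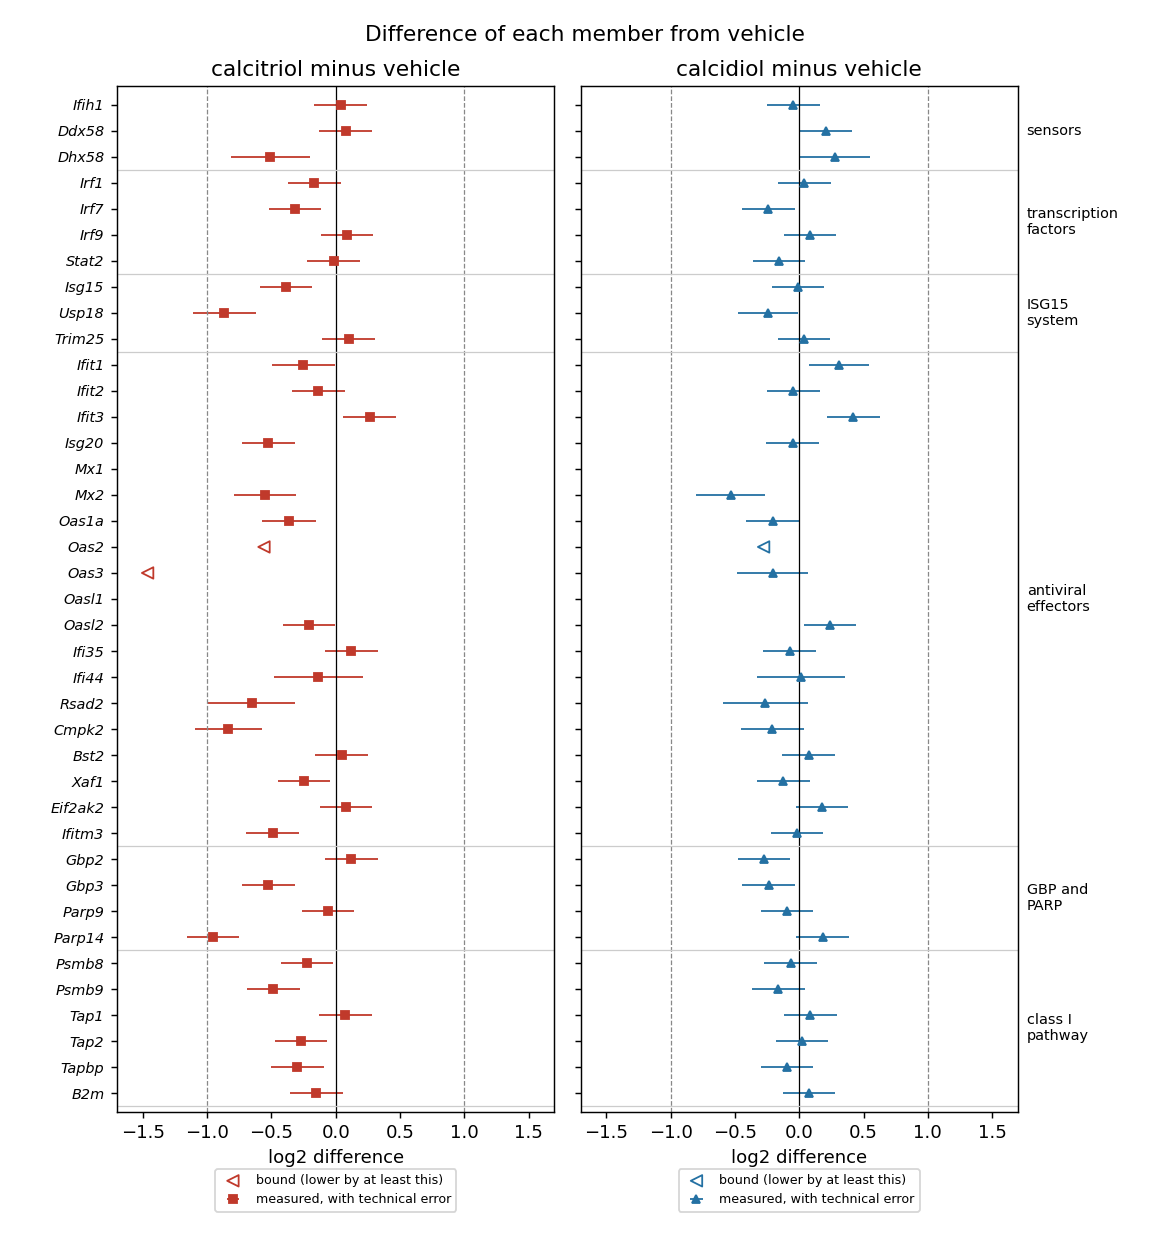
Log2 difference of each member from vehicle with calcitriol (left) and calcidiol (right). Bars are the scanner software's technical error, open triangles are bounds and dashed lines mark 2-fold. Every measured value lies inside the dashed lines, and the lowest, Parp14 with calcitriol, is at -0.95. The Oas3 bound with calcitriol lies outside them, at -1.46.

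As a set, members with low signals were farthest below vehicle with calcitriol. Among the 7 detected members with a mean signal under 100, all 7 were below 0 with calcitriol, against 57.0% of 3844 genes in that range. Their median was -0.55, against -0.07 over those genes. Among members of 100 to 1000 the median was -0.13, against -0.00 for genes of that range, and among those over 1000 it was -0.17 against 0.04. With calcidiol the medians in the same order were -0.21 (over 8 members), -0.05 and -0.01, against 0.02, -0.02 and -0.004 for genes of those ranges. The sizes of low-signal values changed with the processing. Under normexp background correction with quantile normalisation Usp18 was at -0.37, Cmpk2 at -0.28 and Rsad2 at -0.16 with calcitriol. With an offset of 32 added to the scaled signal they were at -0.52, -0.48 and -0.27.

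The cytosolic sensors came first in the order of the pathway. Ifih1, which encodes the long double-stranded RNA sensor MDA5, had signals of 285, 296 and 297 with vehicle, calcitriol and calcidiol, so that the arrays differed by less than the technical error. Ddx58, which encodes RIG-I, the sensor of RNA with 5′ triphosphate ends, had signals of 1182, 1262 and 1467 and differences of 0.08 and 0.21 ± 0.20. Dhx58 encodes LGP2, a relative without the signalling domain. Its signals were 32.6, 23.2 and 42.6, lower than vehicle with calcitriol (-0.51 ± 0.31) and higher with calcidiol (0.28 ± 0.27). The value with calcitriol was 1.72-fold under that with calcidiol.

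Transcription factors of the response stayed near vehicle. Irf1 had signals of 7193, 6490 and 7964, and its differences of -0.17 and 0.04 lay within the technical error of 0.20. Its spot lies 1 row or column from the edge, and its other probe gave -0.52 with calcitriol. Irf7, the factor that amplifies interferon alpha production, had signals of 1582, 1286 and 1441, with -0.32 ± 0.20 for calcitriol and -0.24 ± 0.20 for calcidiol. Both hormone arrays were below vehicle for this gene. Irf9, the DNA-binding partner of STAT2, gave 843, 908 and 963, a difference of 0.09 with each hormone. Stat2 gave 1237, 1239 and 1194, with differences of -0.02 and -0.16. Neither of these genes left its technical error.

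Isg15 encodes the ubiquitin-like protein that is joined to other proteins in the response. Its signals were 2620 with vehicle, 2029 with calcitriol and 2803 with calcidiol, or -0.39 ± 0.20 and -0.01 ± 0.20. Only the calcitriol array was below the other 2. Usp18, the protease that removes ISG15 and also restrains the type I interferon receptor (probe at chr6:121220874-121220933 on mm9), had signals of 62.0, 34.4 and 56.5. That was -0.87 ± 0.25, or 1.82-fold lower, with calcitriol and -0.24 ± 0.23 with calcidiol. Trim25, a ubiquitin ligase that acts on RIG-I, had signals of 11336, 12292 and 12528, within the technical error on all arrays. The probe behind these Trim25 values is 60 bases long and ends in a GT repeat of 31 bases, of which the last 30 are shown because such repeats occur at many places in a genome. Capitals mark the repeat.
Trim25 probe end: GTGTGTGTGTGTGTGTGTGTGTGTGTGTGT
Another bright Trim25 probe gave -0.01 with calcitriol and -0.05 with calcidiol.

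The antiviral effectors are the largest group, with 19 members. Over the 15 measured on all arrays the median was -0.24 with calcitriol, and 11 of the 15 were below vehicle, against 48.0% of all genes. The IFIT proteins bind foreign RNA ends. Ifit3 (chr19:34663105-34663164) had signals of 187, 227 and 269 and was the highest member with both hormones, at 0.27 ± 0.21 and 0.42 ± 0.21. Ifit1 (chr19:34723827-34723886) had 55.8, 47.4 and 74.4, lower than vehicle with calcitriol (-0.25 ± 0.24) and higher with calcidiol (0.31 ± 0.23). Ifit2, the third of the family on chromosome 19, had 492, 454 and 513, with differences of -0.13 and -0.05. Across these 3 neighbours the signs differed.

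Rsad2 and Cmpk2 lie side by side on chromosome 12. Rsad2 encodes viperin, which makes a chain-terminating nucleotide, and Cmpk2 encodes a mitochondrial nucleotide kinase that supplies its substrate. Rsad2 (chr12:27127859-27127918) had signals of 27.8, 17.9 and 24.9, or -0.65 ± 0.34 with calcitriol and -0.26 ± 0.33 with calcidiol. Cmpk2 (chr12:27164134-27164193) had 57.6, 32.6 and 53.6, or -0.83 ± 0.26 and -0.21 ± 0.24. In both genes the calcitriol array was the lowest and the calcidiol array lay within the technical error of vehicle.

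The oligoadenylate synthetases make the second messenger that activates RNase L. Oas3, with 1 probe (chr5:121203598-121203657), had signals of 37.6 with vehicle, 11.2 with calcitriol and 35.1 with calcidiol. It was not well above background with calcitriol, and so was at least 2.75-fold lower there than with vehicle and at least 2.39-fold lower than with calcidiol. A bound here sets the bright array against the higher of the dim probe's own signal and the lowest signal well above background on its array, after scaling. Calcidiol differed from vehicle by -0.20 ± 0.28 for this gene. Oas2 had signals of 20.1, 7.26 and 8.71 and was well above background with vehicle only, at least 1.47-fold above calcitriol and 1.21-fold above calcidiol. Oas1a had 163, 128 and 152, at -0.36 ± 0.21 and -0.20 ± 0.21. Oasl2, a synthetase-like protein, had 770, 674 and 978, on opposite sides of vehicle at -0.21 and 0.24. The other synthetase-like member, Oasl1, gave 5.23, 11.3 and 10.1, none of them well above background.

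Mx proteins are dynamin-like GTPases that trap viral components. No array had Mx1 well above background (8.0, 3.10 and 3.77). Mx2 (chr16:97782327-97782386) had signals of 52.1, 35.9 and 38.7, or -0.55 ± 0.24 with calcitriol and -0.53 ± 0.27 with calcidiol. It was the lowest member with calcidiol, and the hormone arrays differed from each other by less than their error. Isg20, an exonuclease that degrades RNA, had 3534, 2488 and 3672, at -0.52 ± 0.20 with calcitriol and -0.05 ± 0.20 with calcidiol. Its other probe gave -0.38 with calcitriol. Ifitm3, a membrane protein that blocks viral entry, had 270, 194 and 287, at -0.49 ± 0.21 and -0.02 ± 0.21. For both of these genes the calcitriol array alone was low.

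Other effectors remained close to vehicle. Xaf1, a pro-apoptotic factor, had 488, 417 and 483, and its difference with calcitriol was -0.24 ± 0.20. Bst2 encodes tetherin, which holds budding virus at the membrane, and had 2858, 2986 and 3235. Eif2ak2 encodes PKR, the kinase that halts translation on double-stranded RNA, and had 1192, 1274 and 1450. Ifi35 had 7562, 8328 and 7725, and Ifi44 had 25.6, 23.6 and 27.7. By the brightest probes, all differences from vehicle of these last 4 genes lay within the technical error. The other Ifi35 probe, however, gave 0.33 with calcitriol and 0.30 with calcidiol. The Ifi44 spot lies 5 rows or columns from the edge.

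Guanylate-binding proteins attack the vacuoles of intracellular pathogens. Gbp2 had signals of 1707, 1881 and 1518, at 0.12 ± 0.20 with calcitriol and -0.28 ± 0.20 with calcidiol (probe at chr3:142300719-142300778). Gbp3, its neighbour on chromosome 3, had 631, 444 and 576, at -0.52 ± 0.20 and -0.24 ± 0.20. Calcitriol was the highest array for Gbp2 and the lowest for Gbp3. Parp9, which acts together with a ubiquitin ligase, had 730, 708 and 735, flat across the arrays.

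Parp14, a mono-ADP-ribosyltransferase, gave the lowest measured value with calcitriol, where Oas3 has a bound only. By its brightest probe (chr16:35832992-35833051) the signals were 1288 with vehicle, 673 with calcitriol and 1573 with calcidiol, or -0.95 ± 0.20, a 1.94-fold difference, and 0.18 ± 0.20. That spot lies 5 rows or columns from the array edge. The other Parp14 probe, farther inside, had signals of 74.7, 96.4 and 78.9, so that calcitriol was the highest array there, at 0.35. The probes contradict each other in direction, and the Parp14 value rests on the spot near the edge.

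The class I pathway makes peptides in the immunoproteasome, moves them through the TAP transporter and loads them on heavy chains held by B2m. Psmb9, an immunoproteasome subunit, had signals of 2278, 1648 and 2191, at -0.48 ± 0.20 with calcitriol and -0.16 ± 0.20 with calcidiol. Psmb8 had 6251, 5419 and 6425, at -0.22 ± 0.20 and -0.07 ± 0.20. Tap2 had 2809, 2355 and 3071, at -0.27 ± 0.20 with calcitriol and 0.02 with calcidiol. For these genes the calcitriol array was the lowest of the 3.

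Tap1, which shares its promoter stretch with Psmb9, had 229, 243 and 261, with differences of 0.07 and 0.09 inside the technical error of 0.21. Its spot lies 3 rows or columns from the edge. A brighter Tap1 probe carried an outlier flag on the calcitriol array, and with flagged spots kept Tap1 was at -0.50 with calcitriol. Tapbp, or tapasin, which bridges TAP and the heavy chain, had 11122, 9158 and 11206, at -0.30 ± 0.20 and -0.10 ± 0.20, and its other probe gave -0.28 with calcitriol. B2m, the light chain, had 25233, 23020 and 28629, at -0.15 ± 0.20 and 0.08 ± 0.20, and its other probe gave 0.26 with calcitriol. Over the 6 genes the median was -0.25 with calcitriol, with 5 of 6 below 0, against 48.0% of all genes. With calcidiol it was -0.02, with 3 of 6 below 0, against 51.3% of all genes. With median centring 6 of 6 were below 0 with calcidiol, where 69.2% of all genes were.

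Calcitriol and calcidiol were then compared directly, as 1 pair at the same dose and time. The members' median was -0.16 (calcitriol minus calcidiol), against 0.01 for all 16517 genes, and 28 of 35 were below 0, against 47.4% of genes. With each array centred on its median the members' median was 0.046 and that of all genes 0.22, so that its sign turned while its distance from all genes was -0.17. All 6 class I genes and 14 of the 15 effectors were below 0, but with median centring 3 of the 6 and 6 of the 15 were, as were 15 of the 35 members, against 21.9% of genes. Parp14, by the spot near the edge, was the only measured member 2-fold apart (-1.14 ± 0.20, 2.20-fold), against 1.37% of genes lower and 0.466% higher (226 and 77 genes, or 123 and 152 with median centring). Its other probe gave 0.38. Dhx58 (-0.79 ± 0.31), Usp18 (-0.63 ± 0.26) and Cmpk2 (-0.63 ± 0.27) were also at least 1.5-fold lower, so that 4 of 35 members passed that size against 5.38% of genes, and none was 1.5-fold higher, against 2.29%. These 3 genes had mean signals under 100, where 3 of 7 members and 11.7% of genes were that much lower. Ifit1 was at -0.56 ± 0.24, Oasl2 at -0.45 ± 0.20 and Isg15 at -0.38 ± 0.20. Gbp2 was the highest, at 0.40 ± 0.20. Within their technical error of 0 lay 19 of the 35 members and 9863 of 16517 genes.

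**Figure D3:**
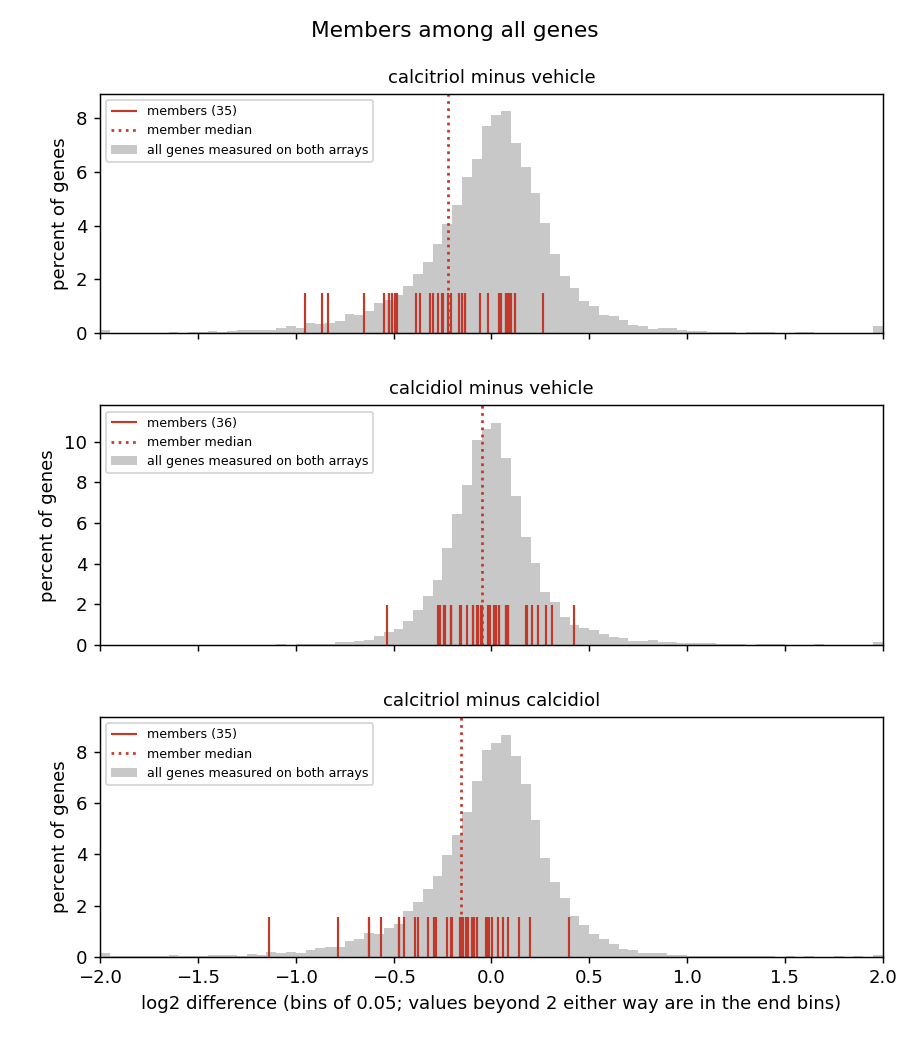
Distribution of log2 differences over all measured genes (grey bars, percent of genes per bin) with the members as red ticks and their median as a dotted line, for the 3 comparisons. The member median lies at -0.22 with calcitriol, at -0.05 with calcidiol and at -0.16 between the compounds, and all ticks lie inside the spread of the grey bars.

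Values were also set out by the response element in the promoter. With calcitriol the median was -0.08 over 14 measured members with its letters and -0.21 over 15 without them. With calcidiol the medians were -0.02 and -0.05, and between the compounds -0.16 and -0.15. Among the measured members of the first set Rsad2 was the lowest with calcitriol and Ifit3 the highest. Oas3, also of that set, is outside the calcitriol medians because it was not well above background there. By its bound it was at least 2.75-fold lower than with vehicle.

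The spread between probes of a gene gives another view of the error. With calcitriol, 12 members had another detected probe, and in 8 of them its value, or the mean where there were several, had the sign of the brightest probe. The median gap was 0.20 on the log2 scale, as large as the technical error, and the widest was 1.30, for Parp14. With calcidiol the sign was shared in 6 of 11 members, with a median gap of 0.09. Usp18, Cmpk2 and Oas3 have a single probe each, so their values have no such check.

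**Figure D4:**
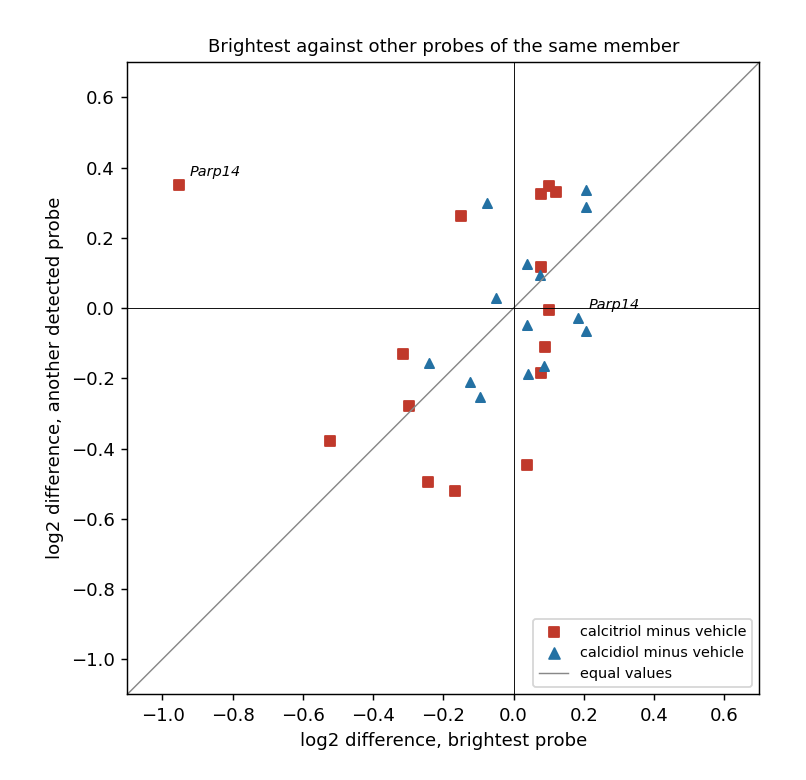
Log2 difference from vehicle by the brightest probe of a member (horizontal) against each other detected probe of that member (vertical), with a line of equal values. Points scatter on both sides of 0, and Parp14 with calcitriol lies farthest from the line, at -0.95 by one probe and 0.35 by the other.

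Other genes of the pathway were read from related lists, starting with the ligands. Of 13 interferon genes on the array Ifnl3 alone was detected with both vehicle and calcitriol, at 29.0 and 30.2. Ifng, which has 1 probe, was well above background with calcidiol only (7.50, 2.88 and 39.2), at least 2.72-fold above vehicle. Among 1192 genes detected on only 1 array of that pair, 159 had a bound of at least 2-fold, in either direction. Ifnb1 was detected on no array. All 6 receptor genes were detected, with a median of -0.03 with calcitriol, from -0.35 for Ifnlr1 to 0.12 for Ifnar1, and of -0.06 with calcidiol, from -0.15 for Ifngr1 to 0.07 for Ifnar1. Of 11 JAK-STAT genes none was 2-fold apart. Jak2, the kinase of the interferon gamma receptor, was lowest with calcitriol (1066, 698 and 892, or -0.63), and its other probe gave -0.59. With calcidiol the phosphatase genes Ptpn11 and Ptpn6 were lowest and highest, at -0.37 and 0.29.

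Of 19 genes for nucleic acid sensing and interferon induction, 16 were measured with each hormone and none was 2-fold from vehicle. Tlr3, the endosomal receptor for double-stranded RNA, was lowest with both hormones (51.7, 28.1 and 28.6), at -0.89 and -0.96. Ikbke was highest with calcitriol at 0.39 and Irf5 with calcidiol at 0.23. Aim2, a DNA sensor, was well above background with calcidiol only (3.18, 3.37 and 32), at least 2.23-fold above vehicle, and its other probe was detected on no array.

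Among 67 other interferon-stimulated genes on the array, 56 were measured, with medians of -0.06 with calcitriol and -0.03 with calcidiol. Genes at least 2-fold lower with calcitriol were Ccl5, a chemokine that draws T cells (280, 115 and 221, or -1.30), and Ifi27l2a (122, 58.1 and 91.6, or -1.09). These were 2 of 56, against the 1.57% of all genes. Casp4, the caspase that senses cytosolic lipopolysaccharide, was highest at 0.64. With calcidiol Iigp1, an immunity-related GTPase, was lowest at -0.82, and Gbp9 was highest at 0.54. Iigp1 was also below vehicle with calcitriol, at -0.95.

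MHC class I heavy chain genes had medians of -0.01 and -0.07 over 19 measured genes, from Mr1 (-0.57) to H2-T3 (0.46) with calcitriol and from H2-T10 (-0.36) to H2-M2 (0.33) with calcidiol. Many are near-identical copies whose probes may read each other, so single values are uncertain. The 18 other genes for class I peptide processing and loading had medians of 0.00 with both hormones. Psme3, a proteasome activator, was highest with calcitriol at 0.54 and Lnpep lowest at -0.22. With calcidiol Sec61a1 was highest at 0.97, from a spot 4 rows or columns from the edge, where its other probes gave -0.07 and 0.20, and Psmb7 was lowest at -0.18.

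**Figure D5:**
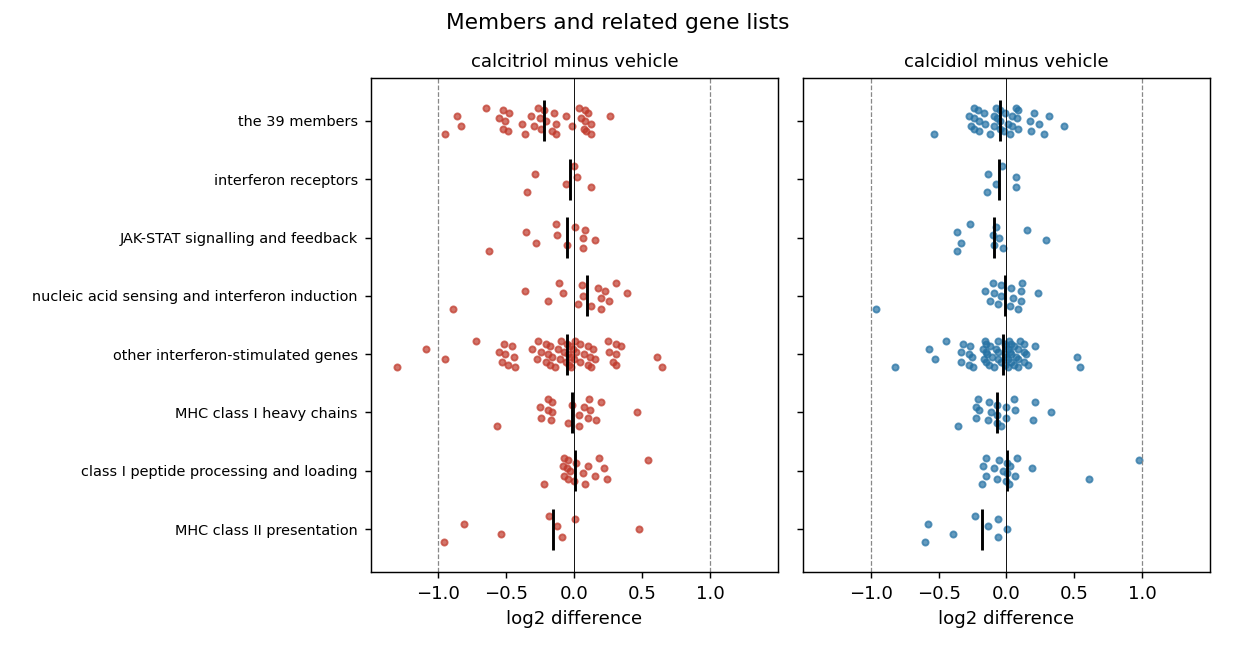
Log2 difference from vehicle of each measured gene (points, spread vertically for visibility) with the median of its list (black bar), for the 39 members and 7 related lists. Medians lie between -0.22 and 0.09 with calcitriol and between -0.18 and 0.00 with calcidiol, and Ccl5 and Ifi27l2a are the points beyond the dashed 2-fold line.

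Fibroblast markers were farther from vehicle than any measured member. The genes Dcn (163, 32.4 and 89.6) and Col1a1 (243, 103 and 152) were at -2.35 and -1.26 with calcitriol and at -0.97 and -0.78 with calcidiol, and the other 4 fibroblast markers were detected on no array. Of 11 leukocyte markers 6 were measured against vehicle with each hormone, with medians of -0.08 with calcitriol and 0.23 with calcidiol. With calcitriol 3 were below 0 and 3 above, and with calcidiol 2 and 4, against 48.0% and 51.3% of all genes below 0. Cd3e was at 0.48 and 0.58, Fcer1g at 0.46 with calcitriol and Lyz2 at 0.48 with calcidiol. Their signals were low. Cd3e had 33.9, 47.9 and 54.6, and its other probe was detected on no array. Fcer1g had 15.7 with vehicle and 21.8 with calcitriol, and Lyz2 had 16.0 with vehicle and 24.0 with calcidiol. Cd68 gave -0.29 with calcitriol by its brightest probe and 0.69 by another. Between the compounds 5 leukocyte markers were measured, with a median of -0.22 on the 75th percentile scaling, beside -0.16 for the members. Csf1r, the receptor of a macrophage growth factor, had 1570, 1349 and 1916, from a spot 2 rows or columns from the edge, and the integrin gene Itgam had 1144, 1000 and 1075. Adgre1, Cd79a and Tyrobp were detected on no array. Ptprc, the pan-leukocyte CD45 gene, had 322, 339 and 419 by 1 of its 5 probes, and the other 4 were detected on no array. Of 5 endothelial markers Kdr alone was detected, at -0.84 and -0.32. The labels name a single cell line and no other cell type, so these markers are read as genes and not as a count of cells. Their part in the members' values was not tested. In bulk RNA fewer cells that express a gene and less RNA per cell cannot be told apart.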

How the data were processed

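Each of 3 groups (vehicle, calcitriol, calcidiol) was hybridised to 1 array. The deposited scanner files hold the processed spot intensity on a linear scale, background-subtracted and placed on mm9 by Agilent Feature Extraction 10.7.1.1 per the file headers (9.5.1.1 per the submitters' processing notes). The deposited value table, of unstated normalisation, has a log2 median of 3.71 in each column and was an alternative. Arrays held 62976 spots, 59305 of them not controls, for 56605 probes, of which 1489 were left out for outlier flags, and no spot was saturated. The 75th percentile subtracted was 247, 249.6 and 265.5. A gene was read by its brightest probe, and a member is named as the array design names it. Of 69 member probes 2 carried a flag. The number of arrays limits the precision, and no test was run. Sizes of 2-fold and 1.5-fold were used to describe values.

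Members and lists were chosen with earlier results of these data known. Named in full were members 2-fold apart or with a 2-fold bound and the 3 highest and 3 lowest per hormone, and of each related list the highest and the lowest gene and any gene 2-fold apart. Some genes that this rule takes are not reported here. Python 3.11.15 with numpy 2.4.6, pandas 2.3.3 and matplotlib 3.10.9, and R 4.3.3 with limma 3.58.1 were used, and the counting was tested on simulated data. Alternatives were median centring, quantile normalisation, normexp (offset 50), an offset of 32, other filters, flagged spots kept, probe means, the value table, spots outside the outermost 6 rows and columns, and sizes of 1.5-fold and 3-fold.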

Additional observations from a re-analysis of the deposited data

How the results depend on the processing

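No paired analysis was possible because each group has 1 array. Over 10 alternative settings the members' median ran from -0.25 to -0.11 with calcitriol, from -0.13 to -0.03 with calcidiol and from -0.17 to 0.046 between the compounds. The highest calcitriol median (-0.11) and the turned sign between the compounds (0.046) both came from centring each array on its median. Taken minus the median of all genes, the 3 ranges were -0.26 to -0.18, -0.05 to -0.02 and -0.18 to -0.15. The count of members 2-fold from vehicle with calcitriol was 0. It became 1 (Parp14) with normexp and quantile normalisation, 2 (Oas2 and Oas3) when detection on 1 of the arrays was enough, and 4 at 1.5-fold. With calcidiol it became 1 (Oas2) under the looser detection rule. Between the compounds the count was 1 (Parp14). It became 0 with median centring, with the mean over probes, without the outermost 6 rows and columns and at 3-fold, 2 (Oas3 and Parp14) under the looser detection rule, and 4 at 1.5-fold. Of 1029 values of single members under the alternatives, 998 differed from the reported value by no more than its technical error, and 16 of the other 31 were under normexp. Part of this agreement was fixed in advance. The looser detection rule (106 values) and the filter at the 25th percentile of signal (84 values) reuse the reported values, so no sign could turn there. Median centring (106 values) shifts all values of a comparison alike, by less than the technical error. In 48 of the 1029 the sign turned, 23 of them with median centring. In 46 of the 48 the reported value lay within its technical error of 0, and the others were Parp14 with calcitriol against vehicle (0.35) and against calcidiol (0.37), without the outermost 6 rows and columns. Counts over all genes also changed: with normexp 93 genes were higher and 105 lower with calcitriol, 77 and 4 with calcidiol, and 34 and 128 between the compounds. Under the looser detection rule 356 genes were higher and 612 lower with calcitriol, 449 and 229 with calcidiol, and 225 and 619 between the compounds. Between the compounds 70 were higher and 199 lower with the mean over probes. They were 73 and 160 without the outermost 6 rows and columns, and 23 and 53 at 3-fold. The reported counts were 168 and 262 of 16671 genes with calcitriol, 143 and 24 of 16664 with calcidiol, and 77 and 226 of 16517 between the compounds.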

Other observations

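Genes of MHC class II presentation, which lie outside the class I group described above, held some of the lower values. Of 15 such genes on the array 8 were measured with each hormone, with medians of -0.16 with calcitriol and -0.18 with calcidiol. Cd74, the invariant chain that guards the class II groove, had signals of 655 with vehicle, 340 with calcitriol and 473 with calcidiol, or -0.96 and -0.58. H2-Ab1, a class II beta chain, had 1380, 797 and 980 by its brightest probe, at -0.81 and -0.60, from a spot 1 row or column from the edge. Its other 3 probes, farther inside, gave values from -0.72 to -0.60 with calcitriol and from -0.49 to -0.31 with calcidiol, so that all 4 probes lay below vehicle on both hormone arrays. H2-DMa, which exchanges class II peptides, was at -0.54 with calcitriol and -0.13 with calcidiol. Rfx5, a subunit of the factor that binds class II promoters, was highest with calcitriol at 0.48 and was at -0.39 with calcidiol, and Ctsl was highest with calcidiol at 0.01. Ciita, the class II coactivator, was detected on no array. None of these genes was 2-fold apart, and none was tested.

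Ifit3b, a paralog of the member Ifit3 on the same chromosome, had signals of 120, 186 and 186, or 0.61 with calcitriol and 0.52 with calcidiol. Whether the probes of the paralogs read each other was not tested.

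Siglech, a dendritic cell marker, had signals of 2747, 2475 and 5062 by a spot 5 rows or columns from the edge, whereas its other 2 probes were detected on no array. Irf8 was the only other detected gene of the 5 on that list.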
